A study of Urocitellus parryii with 3 samples.

Results

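The miR-29 family was described in small-RNA reads from liver of Urocitellus parryii, the arctic ground squirrel. This hibernator cycles in winter between days of deep torpor and brief rewarming. Its 3 mature members, miR-29a-3p, miR-29b-3p and miR-29c-3p, were found as placed reads whose first 18 bases equal those of the mature form, each distinct read counted once per stage. They took 92230 of 17086590 placed reads, in 2830 of 576915 distinct reads. The libraries were 1 each from early arousal (EA), late torpor (LT) and post-reproduction (PR), and held 5611673, 5860476 and 5614441 placed reads in that order. RNA of 4 EA, 4 LT and 6 PR animals was mixed in equal amounts within each stage, so the 14 animals give no replicate.

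EA and LT animals were hibernating. They were housed at 4 h light and 20 h dark, carried temperature transmitters and had passed at least 4 torpor bouts. The labels name day 4 of a bout as the time of sampling and do not say how this applies to EA. PR animals were summer animals at normal body temperature, served as the non-hibernating reference and were, per the labels, anesthetized before sampling. They had 16 h of light and 8 h of darkness a day, so season, hibernation, light cycle and anesthesia cannot be told apart in comparisons with PR. Strain and age are not in the labels. No test between stages could be made, all intervals below are 95% intervals for counting error alone, and ratios compare libraries, not stages. In whole liver, fewer cells of a type and less RNA per cell cannot be told apart. miR-122-5p, a marker miRNA of hepatocytes, was the most abundant feature in each library, at 72.9% of placed reads in EA, 76.7% in LT and 75.4% in PR.

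MicroRNAs are short RNAs that guide Argonaute proteins to messenger RNAs and lower the output of those messages, and bases 2 to 8, the seed, do most of the pairing. The miR-29 seed is known from human and mouse for targets that build extracellular matrix, such as collagens and elastin, and for the DNA methyltransferases DNMT3A and DNMT3B. In mouse and human liver the family is made by hepatocytes and by stellate cells, the main matrix-forming cells, and is known for its loss from stellate cells in fibrosis. In both species miR-29a is transcribed with a miR-29b copy and miR-29c with another miR-29b copy.

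The most abundant wholly placed form of each member is shown with its seed in capitals, because the seed is shared and the bases behind it tell the members apart:
miR-29a-3p: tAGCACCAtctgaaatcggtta
miR-29b-3p: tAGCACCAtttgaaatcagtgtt
miR-29c-3p: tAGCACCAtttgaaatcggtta

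Counted from 1 at the 5′ end, miR-29a-3p and miR-29c-3p differed by the single substitution C10T. miR-29a-3p and miR-29b-3p differed by C10T, G18A, T21G and A22T over the 22 bases they share, and miR-29b-3p and miR-29c-3p by A18G, G21T and T22A. The last bases of miR-29b-3p, AGTGTT in DNA letters, have been described in human cells as a signal for import into the nucleus, and the miR-29a-3p and miR-29c-3p forms do not end in them.

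Every one of the reads with the usual start was placed at a single position. miR-29a-3p lay on scaffold 124039, plus strand, at positions 3879 to 3900. miR-29b-3p lay on GeneScaffold 1753, minus strand, at 142861 to 142883, and miR-29c-3p on the same strand of that scaffold at 142254 to 142275, their first bases 608 bases apart. The sources used here give neither the genome build behind these coordinates nor the genes around them. A miR-29b copy beside miR-29a was not analysed here, since no miR-29b-3p read was placed on scaffold 124039. The mature miR-29b sequence is the same for both copies in human and mouse, so these reads do not say which copy they came from.

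miR-29a-3p was by far the most abundant member. It had 28948 reads in EA, 27617 in LT and 25908 in PR, equal to 5159, 4712 and 4615 reads per 1000000 placed reads (RPM). It ranked 6 among all features in EA and 5 in both LT and PR. miR-29c-3p was far lower, with 3006 reads in EA, 2827 in LT and 2984 in PR, and ranked 41, 36 and 38. Its levels were 536, 482 and 531 RPM. miR-29b-3p, the rarest, had 303 reads in EA, 281 in LT and 356 in PR, and ranked 173, 157 and 139. These counts came to 54.0, 47.9 and 63.4 RPM. The order miR-29a-3p, miR-29c-3p, miR-29b-3p held in each library with no overlap of counting intervals. Ligation and PCR can favour one sequence over another, so a difference in reads between members is not a difference in molecules.

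Scaling by all placed reads rests heavily on miR-122-5p, so the main scale was a trimmed mean of M-values (TMM) over 731 features with at least 100 reads. A feature is a group of placed reads that share their first 18 bases, and one that is no member carries no name in the files. On this scale miR-29a-3p stood at 4455 scaled counts per 1000000 (CPM) in EA, 5382 in LT and 4678 in PR. miR-29b-3p stood at 46.6, 54.8 and 64.3 CPM and miR-29c-3p at 463, 551 and 539 CPM, in the same order of libraries. miR-122-5p was not level on the TMM scale either. Its ratio was 0.719 for EA against LT, 1.15 for LT against PR and 0.824 for EA against PR. Relative to the TMM scale, scaling by all placed reads shifts every log2 ratio by 0.40 for EA against LT, by -0.17 for LT against PR and by 0.23 for EA against PR. For these members the shifts are as large as or larger than most of the differences themselves. A trimmed mean restricted to 269 features made mostly of wholly placed inserts of 20 to 24 nt, an alternative added after the data were seen, moved the log2 ratios by 0.09, 0.02 and 0.11.

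**Figure D1:**
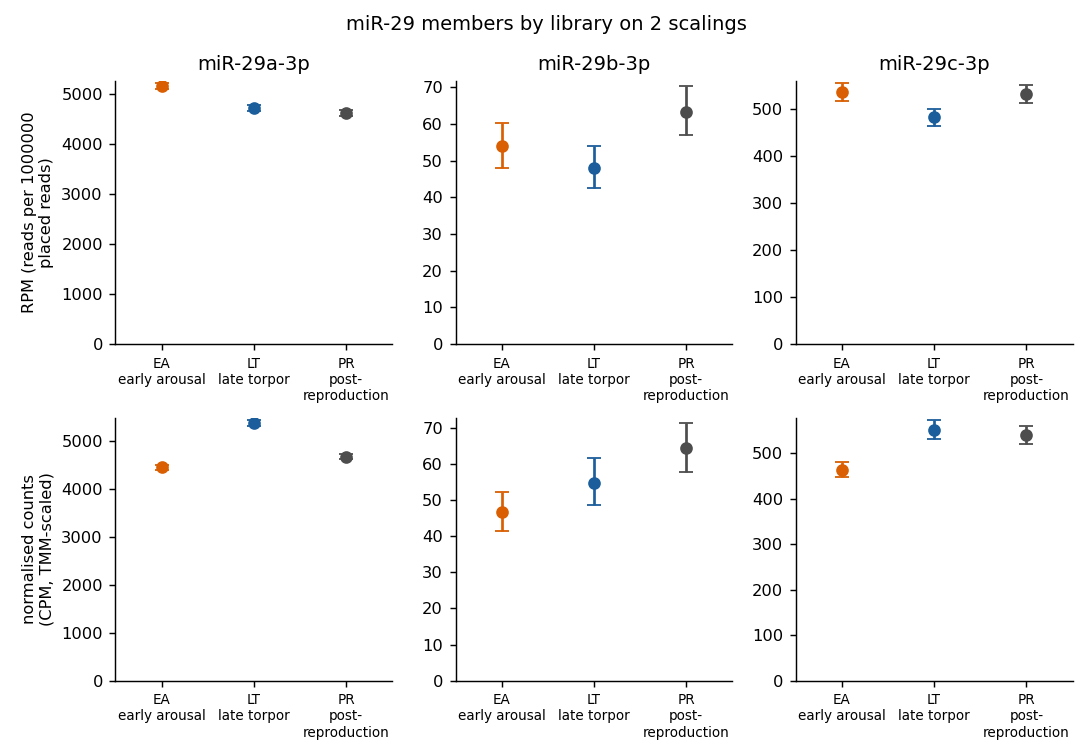
Level of each miR-29 member in the EA, LT and PR libraries, 1 point a library, as RPM (upper row) and as TMM-scaled CPM (lower row). Bars are 95% Poisson counting intervals. EA is above LT in the upper row and below it in the lower row for all 3 members, while miR-29b-3p is highest in PR in both.

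EA against LT compares rewarming with the end of a torpor bout within the hibernation season. None of the 3 members reached a 1.5-fold difference, a size that 38.2% of the 524 features with at least 100 reads in the pair of libraries reached, and 16.8% reached 2-fold. On the TMM scale the EA over LT ratio of miR-29a-3p was 0.828 (0.814 to 0.842), that of miR-29b-3p 0.852 (0.722 to 1.01) and that of miR-29c-3p 0.840 (0.797 to 0.884). Scaled by all placed reads, all 3 lay on the other side of 1, at 1.09, 1.13 and 1.11. Whether the members were higher or lower in EA than in LT was therefore set by the scaling. Scaling cancels when one member is set against another, and there the intervals held 1. Relative to miR-29a-3p the EA over LT ratio was 1.03 (0.871 to 1.22) for miR-29b-3p and 1.01 (0.961 to 1.07) for miR-29c-3p.

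LT against PR compares the end of a torpor bout with summer. Again 0 of 3 members reached 1.5-fold, while 49.7% of 523 features did and 35.2% reached 2-fold. The LT over PR ratio was 1.15 (1.13 to 1.17) for miR-29a-3p, 1.02 (0.971 to 1.08) for miR-29c-3p and 0.852 (0.726 to 0.999) for miR-29b-3p. miR-29a-3p was above 1 under the main setting and all 10 alternatives, which ranged from 1.02 to 1.19. miR-29b-3p was below 1 under all of them, from 0.753 to 0.868. miR-29c-3p crossed 1, from 0.904 to 1.05.

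EA against PR compares rewarming animals with the same summer library, so it shares its reference with the LT comparison and the 2 are not independent. No member reached 1.5-fold, against 45.0% of 551 features, and 23.8% reached 2-fold. The EA over PR ratio of miR-29b-3p was 0.725 (0.620 to 0.848), the smallest of the members' ratios, and it lay between 0.705 and 0.854 under 10 alternatives. miR-29c-3p had 0.859 (0.816 to 0.904) and miR-29a-3p 0.952 (0.937 to 0.969). Both crossed 1 between scalings, at 1.01 and 1.12 when scaled by all placed reads. Over the summed family the ratios were 0.829 for EA against LT, 1.13 for LT against PR and 0.940 for EA against PR. By all placed reads these became 1.10, 1.01 and 1.10.

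**Figure D2:**
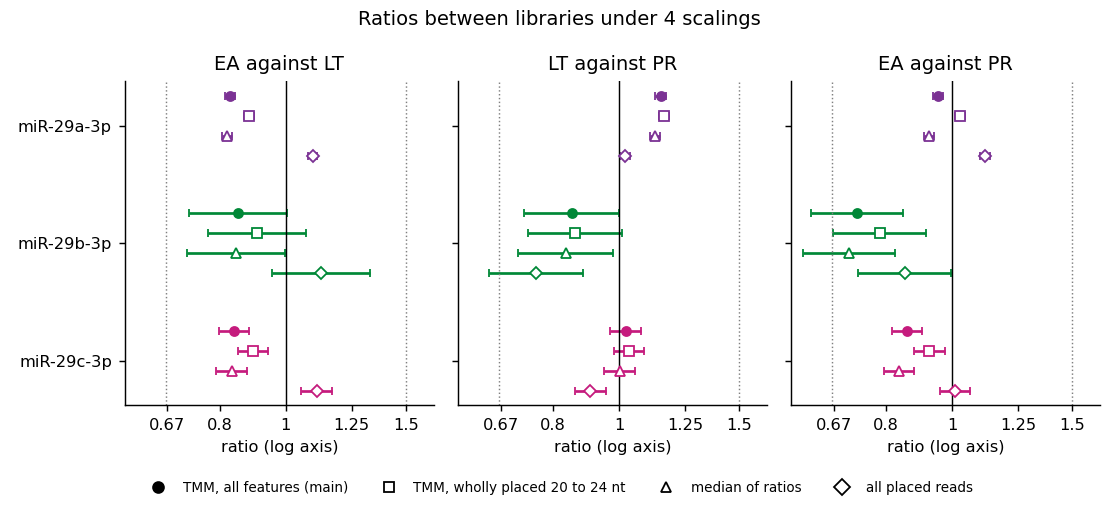
Ratio of each member between pairs of libraries under 4 scalings, on a log axis; filled circles are the main TMM scale, bars are 95% counting intervals, and dotted lines mark 1.5-fold. Points for EA against LT lie left of 1 except under scaling by all placed reads, and those of miR-29b-3p against PR lie left of 1 throughout.

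**Figure D3:**
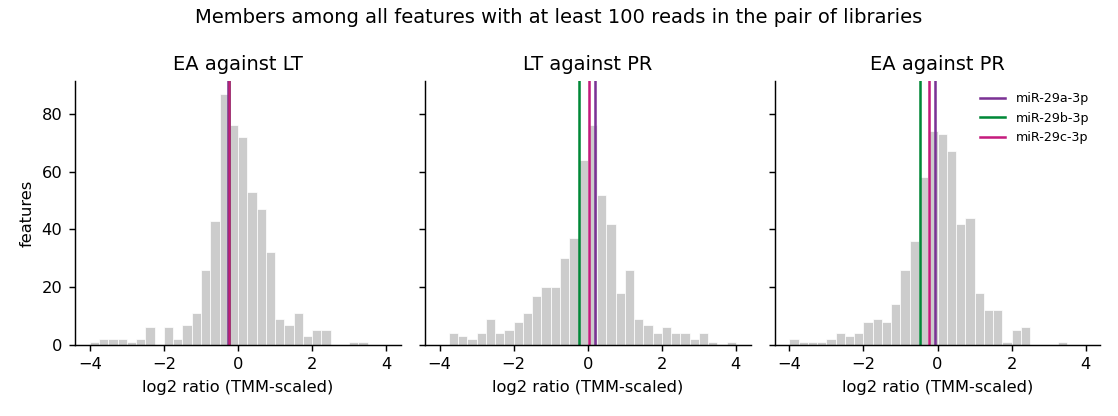
Number of features by log2 ratio in each pair of libraries (grey bars, 0.25 log2 wide) with the 3 members as coloured lines. All 3 members lie within 0.5 log2 of 0 in each panel, and in EA against LT their lines nearly coincide between -0.27 and -0.23.

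The make-up of the family needs no scaling, because each share is taken within 1 library. miR-29a-3p made up 89.7% of miR-29 reads in EA (89.4 to 90.1), 89.9% in LT (89.5 to 90.2) and 88.6% in PR (88.2 to 88.9). miR-29c-3p made up 9.32% in EA (9.0 to 9.64), 9.20% in LT (8.88 to 9.53) and 10.2% in PR (9.86 to 10.6). miR-29b-3p made up 0.939% in EA (0.837 to 1.05), 0.915% in LT (0.811 to 1.03) and 1.22% in PR (1.09 to 1.35). For each member the EA and LT shares lay within each other's intervals, and the PR interval overlapped neither. The PR library thus held relatively more miR-29b-3p and miR-29c-3p and relatively less miR-29a-3p.

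Reads of one member per 100 of another went in the same direction. For miR-29b-3p per 100 miR-29c-3p, though, the PR interval overlapped those of EA and LT. There were 10.4 miR-29c-3p reads per 100 miR-29a-3p reads in EA, 10.2 in LT and 11.5 in PR, and 1.05, 1.02 and 1.37 miR-29b-3p reads per 100 miR-29a-3p reads. The number of miR-29b-3p reads per 100 miR-29c-3p reads was 10.1 in EA (8.93 to 11.3), 9.94 in LT (8.76 to 11.2) and 11.9 in PR (10.7 to 13.3). The members were also set against each other between libraries, with exact conditional intervals chosen after the values were seen, and 6 of 9 such ratios had an interval that excluded 1. They were the 6 that involve PR, all from the same PR library. Relative to miR-29a-3p, the LT over PR ratio was 0.740 (0.630 to 0.869) for miR-29b-3p and 0.889 (0.842 to 0.939) for miR-29c-3p. The EA over PR ratio was 0.762 (0.651 to 0.891) and 0.902 (0.854 to 0.951). Relative to miR-29c-3p, miR-29b-3p had 0.833 (0.704 to 0.985) in LT over PR and 0.845 (0.716 to 0.996) in EA over PR, with upper limits close to 1.

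**Figure D4:**
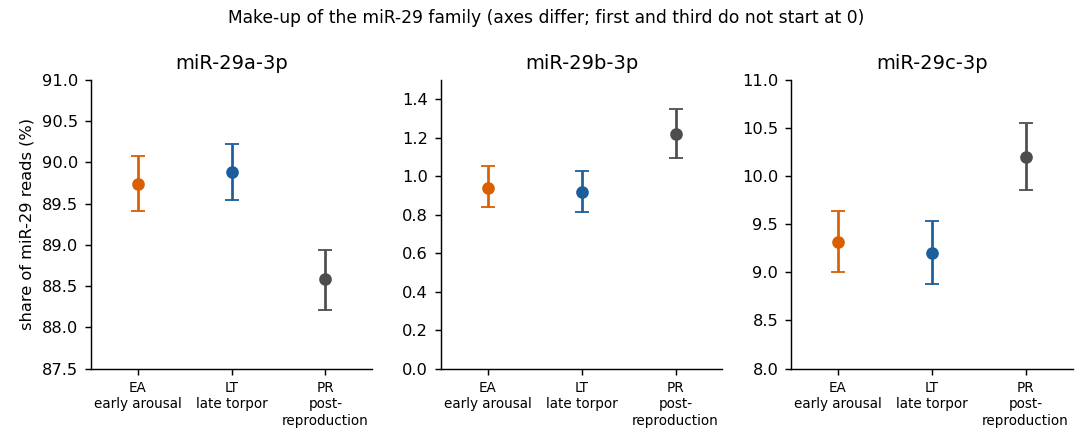
Share of each member in the miR-29 reads of the EA, LT and PR libraries, 1 point a library with its exact binomial 95% interval; the axes differ and those of miR-29a-3p and miR-29c-3p do not start at 0. EA and LT sit together for each member, and PR is lower for miR-29a-3p and higher for the other members.

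Since 1 changed base turns a miR-29a-3p read into a miR-29c-3p read, base changes in the reads bear on these shares. The libraries differed in changes at other read positions. Behind the mature miR-29a-3p form, 17.2% of EA reads, 15.7% of LT reads and 33.9% of PR reads had a changed base in the part of the adapter that was read. T stood for C at read position 24 in 2.19% of EA, 1.53% of LT and 8.36% of PR reads. Read position 19, the base behind those used for matching, was changed in 1.70% of 22-nt miR-29a-3p reads in EA, 0.279% in LT and 0.191% in PR, and in 1.78%, 0.292% and 0.325% of miR-29c-3p reads. How often the base at position 10, which tells the pair apart, was changed in each library cannot be read from these positions, and its part in the higher miR-29c-3p share of PR was not tested.

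The 5′ end sets the seed, and the members differed in it. Reads starting 1 base before the usual start made up 8.70% of miR-29a-3p reads at any start in EA (8.39 to 9.02), 7.36% in LT (7.07 to 7.66) and 6.93% in PR (6.63 to 7.23). They were 2770, 2200 and 1933 reads. For miR-29b-3p the share was 1.30%, 0.707% and 1.11%, from 4, 2 and 4 reads. For miR-29c-3p it was 0.331%, 0.176% and 0.234%, from 10, 5 and 7 reads. The base placed before the usual start is C at all 3 loci, so the members share the templated base and not the share of reads that carry it. The leading early forms are shown with bases 2 to 8 in capitals, since the shift gives them another seed than the usual start:
miR-29a-3p, early start, 22 nt: cTAGCACCatctgaaatcggtt
miR-29a-3p, early start, 23 nt: cTAGCACCatctgaaatcggtta
miR-29c-3p, early start, 23 nt: cTAGCACCatttgaaatcggtta

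The first of these had 1298 reads in EA, 1000 in LT and 928 in PR, and the second 818, 678 and 602. Each was thus more frequent than the whole of miR-29b-3p. The early share of miR-29a-3p in EA lay above the intervals of LT and PR, whose own intervals overlapped. Among 10 other wholly placed features with at least 5000 reads, and at least 100 starting early, EA had the highest early share in 3. Their median early share was 0.963% in EA, 1.06% in LT and 1.23% in PR. The higher early share in EA was therefore not seen across the abundant features in general.

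The start and the end of miR-29a-3p went together. Among wholly placed inserts, 56.8% of early-start reads in EA ended 1 base before the mature end, 55.1% in LT and 57.1% in PR. Of reads with the usual start, 9.67%, 10.0% and 11.7% did. The mature end was used by 35.8%, 37.3% and 37.1% of early-start reads and by 88.1%, 87.9% and 86.3% of the others. Early reads were thus often 22 nt long, the length of the usual form, moved by 1 base as a whole.

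**Figure D5:**
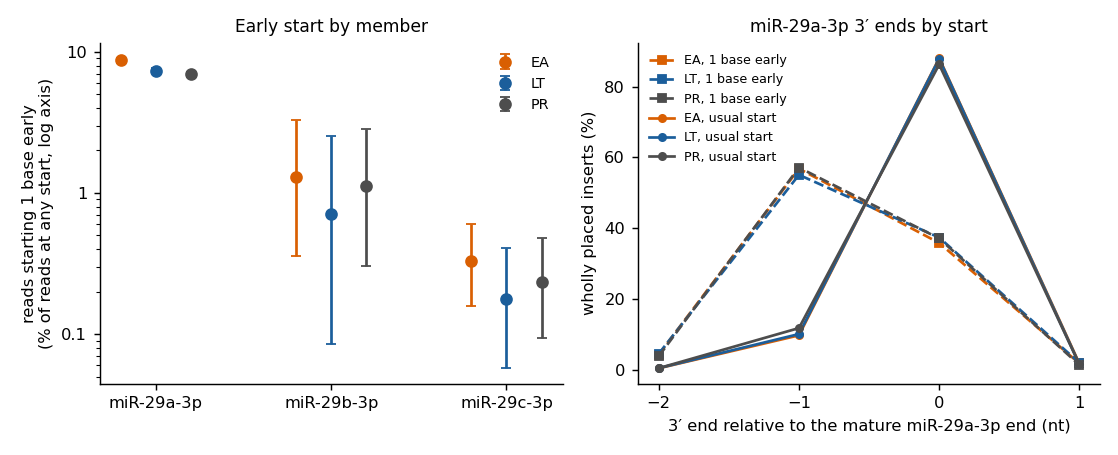
Left, reads starting 1 base early as a percentage of each member's reads at any start (log axis) in EA, LT and PR, with exact binomial 95% intervals. Right, position of the 3′ end of wholly placed miR-29a-3p inserts for early starts (squares, dashed) and the usual start (circles, solid); the peak lies at -1 nt for early starts and at 0 nt for the usual start in all 3 libraries.

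Other shifted starts were rare. miR-29a-3p had 43, 23 and 23 reads starting 1 base late in EA, LT and PR, and 37, 31 and 9 starting 2 bases late. Starts 2 bases early gave 40, 25 and 21 reads, of which 1, 0 and 0 were placed at the miR-29a locus. miR-29b-3p had no read at any of these starts, which allows at most 3 reads in each library. miR-29c-3p had 1, 1 and 3 reads starting 1 base late and 6, 5 and 2 starting 2 bases late. Beyond the shift of 2 bases, starts 4 bases late gave 243, 220 and 148 miR-29a-3p reads and 11, 5 and 6 miR-29c-3p reads.

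The 3′ ends were uniform for miR-29a-3p and miR-29c-3p and broader for miR-29b-3p. Inserts of 22 nt made up 86.6% of miR-29a-3p in EA, 86.4% in LT and 84.8% in PR, and 90.2%, 91.4% and 90.5% of miR-29c-3p. For miR-29b-3p the leading length was 23 nt, at 67.9%, 63.6% and 67.5%. Of all other placed reads with an adapter, 22-nt inserts took 41.4% in EA, 43.8% in LT and 51.3% in PR. A further, placed T behind the mature end was found in 1108 miR-29a-3p, 62 miR-29b-3p and 64 miR-29c-3p reads. These forms are not shown, nor are A on the 22-nt miR-29b-3p end (28 reads) and last base T on miR-29c-3p (278 reads). Some other ends besides the mature ones are shown, with bases that were not placed on the genome in capitals:
miR-29a-3p, 21 nt: tagcaccatctgaaatcggtt
miR-29a-3p, last base T: tagcaccatctgaaatcggttT
miR-29a-3p, added A: tagcaccatctgaaatcggttaA
miR-29b-3p, 22 nt: tagcaccatttgaaatcagtgt
miR-29b-3p, added A: tagcaccatttgaaatcagtgttA
miR-29c-3p, 21 nt: tagcaccatttgaaatcggtt

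The 21-nt miR-29a-3p form made up 8.69% in EA (8.37 to 9.03), 9.25% in LT (8.91 to 9.61) and 10.8% in PR (10.4 to 11.2), and PR lay above the other intervals. The 21-nt miR-29c-3p form made up 5.98%, 4.98% and 6.50%. The 22-nt miR-29b-3p form, which lacks the last base of AGTGTT, made up 18.1%, 18.9% and 17.3%. The mature 23-nt miR-29b-3p form had 64.9% in EA (59.2 to 70.3), 56.0% in LT (49.9 to 62.0) and 63.2% in PR (57.8 to 68.3), with overlapping intervals.

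Unplaced last bases, which polymerases can add to finished miRNAs, also differed by member, but the genome's own bases decide which additions can be seen. A single unplaced A was found on 1.78% of miR-29a-3p inserts in EA, 1.82% in LT and 2.02% in PR, and on 1.96%, 1.56% and 1.60% of miR-29c-3p. miR-29b-3p had 4.01% (2.09 to 6.91), 7.64% (4.79 to 11.4) and 6.73% (4.31 to 9.92). All other placed reads, most of them miR-122-5p, had 11.2%, 11.8% and 11.8%, and the upper limits of all 3 members lay below these values in each library. An A on the 21-nt miR-29a-3p or miR-29c-3p end gives the mature form and goes unseen. On miR-29b-3p it shows at the 22-nt end too. At the mature end alone, A was on 1.34% (0.366 to 3.39), 4.0% (2.01 to 7.04) and 3.22% (1.62 to 5.68) of miR-29b-3p. There miR-29a-3p had 1.69%, 1.73% and 1.93%, and miR-29c-3p 1.89%, 1.49% and 1.60%. A single unplaced T was on 4.00%, 3.54% and 3.60% of miR-29a-3p and on 3.23%, 3.27% and 3.30% of miR-29c-3p, against 2.59%, 2.15% and 2.06% of the other reads. miR-29b-3p had 1, 2 and 0 such reads. An added T at the mature end cannot be seen for any of the 3 members, because the genome itself has T there. Nearly all unplaced T stood on the 21-nt end, in 1114, 946 and 899 miR-29a-3p reads and 93, 90 and 95 miR-29c-3p reads. A mature form whose last base was read as T gives the same read. G stood at that place in 145, 43 and 101 miR-29a-3p reads. How many of these bases were added and how many were changed in reading was not tested. The miR-29b-3p sequence itself has T behind its 21-nt and 22-nt ends, so the T shares cannot be compared between members.

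The partner arms of the hairpins, which are mostly degraded after processing, were found by position within 100 bases on the same strand. They are shown because they lie beside the members on the same strand:
miR-29a partner arm: actgatttcttttggtgttcag
miR-29b partner arm: ctggtttcacatggtggcttag
miR-29c partner arm: gaccgatttctcctggtgtt

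The miR-29a partner arm had 6 reads in EA, 1 in LT and 1 in PR, the miR-29b partner arm 6, 6 and 14, and the miR-29c partner arm 3, 3 and 6. These are all reads placed before the member within the window. The sequence shown had 3 of 8 such reads for miR-29a, 7 of 26 for miR-29b and 2 of 12 for miR-29c. Over the 3 libraries there were 11204 member reads per partner read for miR-29a, 738 for miR-29c and 36.5 for miR-29b. The miR-29b-3p reads may also come from another copy, while the miR-29b partner reads were counted at this locus alone. These counts allow no comparison of the libraries, and the depth shows only that each arm was far rarer than its mature member.

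The features with at least 1000 reads whose TMM-scaled levels, centred on their own mean, lay nearest to each member were sought by the largest log2 difference over the 3 libraries. Among features recognised as miRNAs by part of their first 18 bases, those nearest to miR-29a-3p were let-7a-5p with let-7c-5p, which share their first 18 bases, at 0.04. Then came miR-26a-5p at 0.06 and let-7f-5p at 0.07. Nearest to miR-29b-3p were miR-30a-5p at 0.05, miR-28-3p at 0.06 and miR-221-3p at 0.07. Nearest to miR-29c-3p were miR-125b-5p at 0.03, miR-186-5p and miR-185-5p, both at 0.05. Close relatives that share the bases used for naming were not told apart, such as miR-30a-5p and miR-30d-5p, or miR-26a-5p and miR-26b-5p. With 3 libraries such likeness is a description and no more, and other, unrecognised features also lay within these distances.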

How the data were processed

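Per the labels' protocols, about 10 µg of mixed RNA per stage was size-selected to 18 to 30 nt on a gel, ligated to adapters and amplified in 15 PCR cycles. The authors deposited 1 table of genome positions. Its entries, as the file itself shows, join a 30-base read, its whole-number read count and the stage, with the placed part in capitals. Aligner, genome build and filters: not given in the sources used here. These counts are not scaled to depth, and only reads with at least 18 placed bases are held, so reads changed within their first 18 bases are missed or placed elsewhere. No molecular identifiers were used, and intervals allow for counting error alone.

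The members and lists were chosen with earlier results of these data known. Members were found by their seed and the bases at positions 10 and 18. Placed reads were grouped by their first 18 bases, and groups within 1 mismatch or a start shift of up to 2 bases of a group at least 20 times as abundant were joined to it, members apart. This left 133246 features, of which 731 with at least 100 reads held 98.4% of placed reads and, besides miRNAs, include other RNA fragments and changed reads. Features other than miR-122-5p and those named as nearest to a member were not identified, and the names of the latter come from general knowledge, given after their values were seen. No miRNA sequence table was at hand, so the planned marker lists and fibrosis list were not analysed here.

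TMM factors (30% trimmed on ratio, 5% on abundance, PR as reference) were 1.16 for EA, 0.876 for LT and 0.986 for PR, computed in Python 3.11.15 and numpy 2.4.6 with code written for this purpose. Ratios have exact conditional binomial and shares exact binomial (Clopper-Pearson) 95% intervals, levels Poisson ones and ratios of one member relative to another exact conditional (noncentral hypergeometric) ones, from scipy 1.17.1. The 3′ end was taken from the adapter, allowing 1 mismatch among 5 bases and insert lengths of 18 to 26 nt, and was found in 96.1% to 98.7% of member reads. A feature counted as different at 1.5-fold or 2-fold. The code was tested on simulated data. Figures were drawn with matplotlib 3.10.9. No column of other samples was present.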

Additional observations from a re-analysis of the deposited data

How the results depend on the processing

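Over the 12 member and family ratios and all settings, the 132 values lay between 0.705 and 1.19, and 0 reached 1.5-fold. For EA against LT, scaling by all placed reads gave 1.09, 1.13, 1.11 and 1.10 for miR-29a-3p, miR-29b-3p, miR-29c-3p and their sum, and scaling by the reads of the features gave 1.10, 1.13, 1.12 and 1.10, all on the other side of 1. For LT against PR the same scalings gave 1.02 and 1.02 for miR-29a-3p, 0.908 and 0.904 for miR-29c-3p, and 1.01 and 1.0 for the sum. For EA against PR they gave 1.12 and 1.12 for miR-29a-3p, 0.852 and 0.854 for miR-29b-3p, 1.01 and 1.01 for miR-29c-3p, and 1.10 and 1.11 for the sum. By construction these scalings follow miR-122-5p; whether that sets the shift was not tested. The trimmed mean over wholly placed features, added after the data were seen, gave 0.883, 0.895 and 0.884 for miR-29a-3p, miR-29c-3p and the sum in EA against LT, and 1.03, 0.926 and 1.01 in EA against PR. Median-of-ratios factors gave 1.13 and 1.11 for miR-29a-3p and the sum in LT against PR, and 0.926 and 0.914 in EA against PR. For the same 2 quantities, reads identical to the mature form gave 0.804 and 0.805 in EA against LT and 1.19 and 1.17 in LT against PR. Including shifted starts gave 0.973 and 0.959 in EA against PR. The cause of these moves was not tested. Leaving out the most abundant feature, accepting 1 mismatch and requiring the adapter moved no ratio beyond its counting interval. Accepting 1 mismatch left the miR-29c-3p ratios unchanged. Keeping reads at the own locus could not move any ratio, because every read with the usual start was placed at a single position. Its 12 values repeat the main ones and say nothing about how firm the ratios are.

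The share of features past 2-fold was 31.2% in EA against LT with no minimum of reads, and with a minimum of 1000 reads 8.77% in EA against LT, 20.4% in LT against PR and 12% in EA against PR. Taken from the placed part, 22-nt miR-29a-3p inserts were 2.53% in EA, 3.65% in LT and 2.45% in PR, 23-nt miR-29b-3p inserts 20.1%, 24.6% and 22.5%, and 22-nt miR-29c-3p inserts 2.46%, 3.33% and 1.74%. The placed part runs on where the adapter's first base equals the genome's, which is so at each locus. An exact match to 6 adapter bases gave 83.6% for 22-nt miR-29a-3p in PR. With 281 to 356 reads a library, depth limits miR-29b-3p most. No paired analysis was possible because each stage has 1 library. No library could be left out for the same reason.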
